A study of Gallus gallus with 4 samples.

Results

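Cytolytic cells of chicken blood were compared according to their level of GNLY. The cytolytic cells were chosen by 6 conditions on the values of a cell: ZEB2 of at least 3, CD247 of at least 1, FASLG of at least 1, MMR1L4 of 0, PAX5 plus EBF1 under 3 and MKI67 plus TOP2A under 2. These conditions held for 367 of the 12042 cells of libraries 1 to 3. Of the 367 cells, 101 had a GNLY value of 12 or more and are called GNLY-high, 193 had a value of 4 or less and are called GNLY-low, and 73 lay between. The 294 cells of both groups came from 3 libraries, with 21, 19 and 61 GNLY-high cells and 70, 29 and 94 GNLY-low cells. The blood donors were healthy female layers aged 24 weeks in 1 condition, named Bovans Robust in the labels and Dekalb White Leghorn-type in the study's methods. Their leukocytes had been freed of most red blood cells on a density gradient and of most thrombocytes by beads against CD41/61, so each library held a depleted preparation of 1 hen. A 4th library shared 4890 cell barcodes with library 3, and the differences between these cells made up 0.682% of their total, so it was left out, and every mean and SD below is over n = 3 libraries.

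Cytolytic lymphocytes, that is natural killer (NK) cells and cytotoxic T-cells, kill target cells with proteins stored in granules and with death ligands on their surface. Perforin opens the membrane of the target, granzymes are proteases that enter through it, and chicken GNLY encodes NK-lysin, a saposin-like peptide that lyses membranes of microbes and cells. FASLG is the ligand of the death receptor FAS. T-cells carry the CD3 chains with an α/β or γ/δ receptor, whereas mammalian NK-cells lack a rearranged receptor and share the CD247 chain with T-cells. GNLY lies on chromosome 22 at 4551575 to 4552746 of GRCg7b, the genome build used by the authors, and all positions below are in that build.

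The values of a cell were scores in whole numbers, read as depth-corrected counts of unique molecular identifiers (UMI). Values were summed per library and group and scaled to a total of 10000, and a level below is a value per 10000. GNLY chose the groups and is no result. Its level was 95.8, 153 and 111 in the GNLY-high profiles of libraries 1 to 3, against 5.60, 7.22 and 6.21 in the GNLY-low profiles, 29.3 on average in the cells between and 3.25 in the cells outside the 6 conditions. ZEB2, a transcription factor of effector lymphocytes, and the other genes of the conditions were likewise used for the choice. ZEB2 averaged 49.0 ± 8.03 in GNLY-high and 46.5 ± 6.19 in GNLY-low cells, FASLG 11.6 ± 1.78 in GNLY-high and 13.9 ± 2.12 in GNLY-low cells, and CD247 10.3 ± 0.355 in GNLY-high and 13.3 ± 0.824 in GNLY-low cells (SD). Near the limits, 25 cells had GNLY values of 12 to 15 and 28 had 8 to 11, while 55 had 3 or 4, 45 had 5 to 7, and 67 of the GNLY-low cells had 0. Another 198 cells had a GNLY value of 12 or more but did not meet the 6 conditions. The groups were also unequal in makeup beyond GNLY. GNLY-high cells made up 19.6%, 30.6% and 30.8% of the cytolytic cells of libraries 1 to 3 (exact 95% intervals 12.6 to 28.4%, 19.6 to 43.7% and 24.5 to 37.7%, counting error only). Their median total was 2645, 2683 and 2645 per cell, against 2275.5, 2568 and 2472.5 in GNLY-low cells. They held a median of 1234, 1347 and 1256 genes, against 951.5, 1136 and 1015.5 genes in GNLY-low cells. The median share of values on the mitochondrial genome was 10.8%, 6.59% and 12.2% in GNLY-high and 12.01%, 8.77% and 12.7% in GNLY-low cells.

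GNLY-high cells differed from GNLY-low cells in 324 of 9659 genes tested, with limma on log2 of the level plus 0.1, the library as a block and Benjamini-Hochberg adjusted p under 0.05 (3.35% of genes). A gene past this threshold is called below. The higher genes numbered 246 (2.55%), and all 246 were higher in GNLY-high cells in 3 of 3 libraries. The lower genes numbered 78 (0.808%), of which 70 were lower in 3 of 3 libraries. Both counts of direction come from the libraries in which the genes were called, so they are no separate result. Among the higher genes were those of granule proteases, perforin, chemokines, CD3 chains, MHC class I, glycolysis and, in largest number, 67 ribosomal protein genes. The 3 libraries of both groups did not overlap in 980 genes with GNLY-high above (10.1% of genes) and in 527 with GNLY-high below (5.46%), and this held for 237 of the 246 higher and 55 of the 78 lower genes. The median log2 fold change over all genes was 0.09, and with log values centred on their median 236 genes were higher and 38 lower. With 2 residual degrees of freedom these calls rest on a spread shared among genes of like level. Without a trend in that spread no gene was called, at 979 genes with an unadjusted p under 0.05, and with each gene's own spread none was called, at 705 such genes, against 1143 in the fit used. The prior degrees of freedom were infinite in the fit used, so each SE and p-value rests on that shared spread alone. A gene's own spread between the 3 libraries did not enter its SE or p-value. An exact sign-flip test over 3 pairs cannot go below 0.25.

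**Figure D1:**
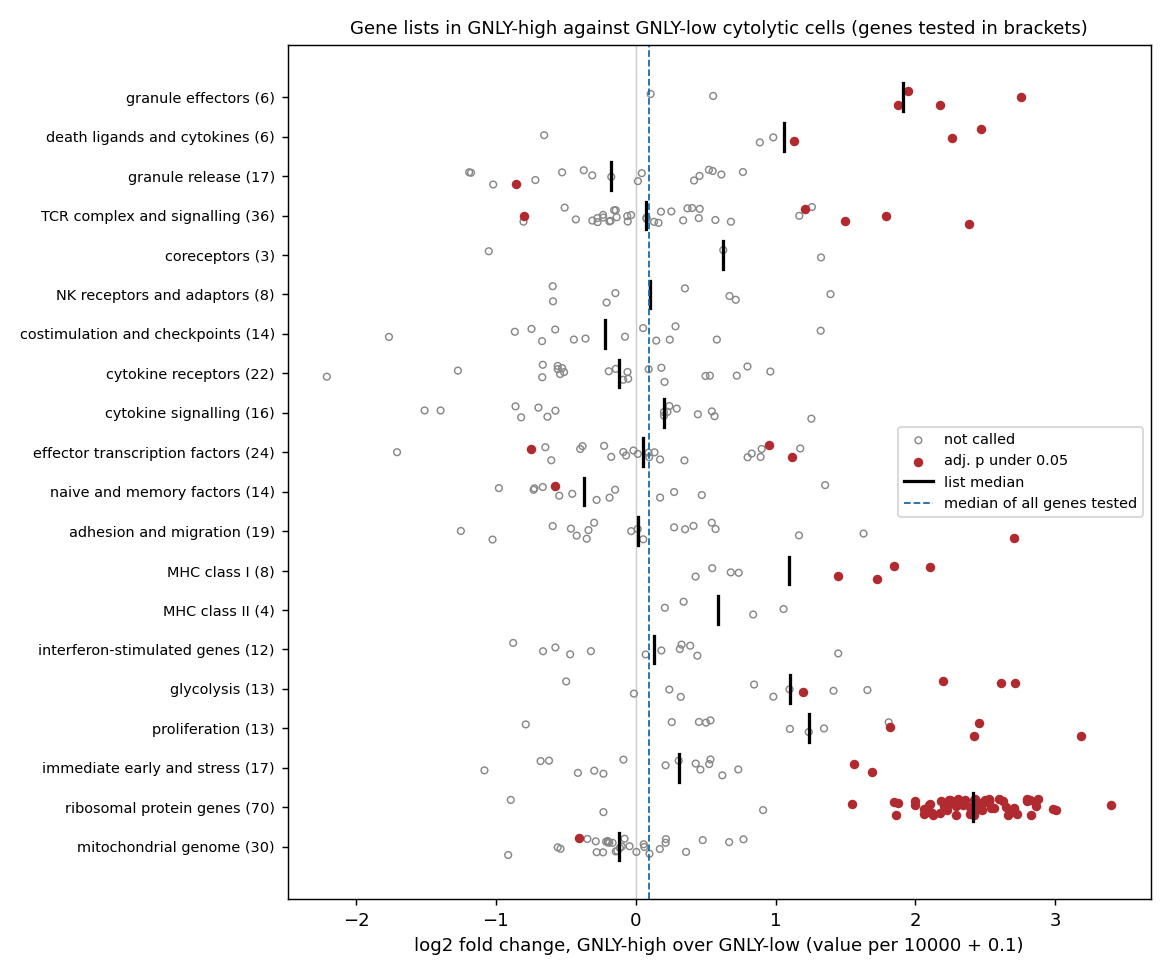
Log2 fold changes (x axis, GNLY-high over GNLY-low, level plus 0.1) of the tested genes of 20 gene lists, 1 list per row with its number of tested genes. Each point is a gene, filled red where called, black ticks are list medians and the dashed line is the median of all genes, 0.09; the ribosomal protein genes, with a median of 2.41, stand to the right of all other lists.

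The granule effector genes were higher in GNLY-high cells, at 4 called of 6 tested, where 2.55% of all genes were called higher. GZMA, which encodes granzyme A, a tryptase, is on chromosome Z at 17183835 to 17206571. Its level was 5.35, 12.2 and 7.37 in GNLY-high cells of libraries 1 to 3, against 1.22, 0.973 and 1.05 in GNLY-low cells. The groups did not overlap, and the log2 fold change was 2.76 ± 0.29 (SE, adjusted p = 2.88e-18 by limma). Library 2 had the highest GZMA level among GNLY-high cells and the lowest among GNLY-low cells. GZMM, granzyme M, is on chromosome 28 at 3661298 to 3665675 and had 6.83, 11.4 and 5.27 in GNLY-high cells, against 1.83, 2.22 and 1.84 in GNLY-low cells. Every GNLY-high library stood above every GNLY-low library, with a log2 fold change of 1.88 ± 0.27 (SE, adjusted p = 5.16e-10 by limma). The perforin gene PRF1 had lower levels than both granzyme genes, 1.48, 2.65 and 0.572 in GNLY-high against 0.122, 0.417 and 0.175 in GNLY-low cells. Its log2 fold change was 2.18 ± 0.50 (SE, adjusted p = 0.00102 by limma), and without library 1 the adjusted p was 0.0635. GZMK, a granzyme gene whose annotated span lies within that of GZMA, averaged 3.21 in GNLY-high and 0.737 in GNLY-low cells (log2 fold change 1.95), and the split of reads between both genes was not examined. CTSC, the protease that activates granzymes, averaged 1.04 in GNLY-high and 0.929 in GNLY-low cells, and CST7, a cystatin of cytolytic cells, 1.64 in GNLY-high and 1.23 in GNLY-low cells, and neither was called.

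The share of cells with a value of 1 or more moved with these levels. For GZMA it was 66.7%, 84.2% and 75.4% of GNLY-high cells in libraries 1 to 3, against 20.0%, 20.7% and 18.1% of GNLY-low cells. Cells of 1 library are not replicates, so these shares are values with no test. For GZMM it was 71.4%, 100% and 63.9% of GNLY-high cells, against 25.7%, 41.4% and 28.7% of GNLY-low cells. Cells of the monocyte side (MMR1L4 of 2 or more and CD247 of 0, 926 cells), which should lack both genes, gave 3 of 926 cells for GZMA and 13 of 926 for GZMM at a median total of 2398, against median totals of 2645 in GNLY-high and 2437 in GNLY-low cells. Neither granzyme gene was seen in 10 of 101 GNLY-high cells (9.90%) and in 110 of 193 GNLY-low cells (57.0%). In the cells outside the conditions, GZMA averaged 0.203 and GZMM 0.279 per 10000, and the GNLY-low means of 1.08 for GZMA and 1.96 for GZMM lay above these as well.

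Genes of death ligands and cytokines gave 3 higher of 6 tested. XCL1, lymphotactin, a chemokine of activated CD8 T-cells and NK-cells, had 0.923, 1.43 and 0.699 in GNLY-high cells, against 0.0609, 0.278 and 0.0874 in GNLY-low cells (log2 fold change 2.26). CCL5, a chemokine of cytotoxic lymphocytes, had 1.85, 1.43 and 1.84 in GNLY-high cells, against 0.487, 0 and 0.481 in GNLY-low cells (log2 fold change 2.47). LOC395551, for which RefSeq lists CCL4 as a synonym, had 5.17, 0.816 and 3.87 in GNLY-high cells, against 2.19, 0.139 and 3.23 in GNLY-low cells, so it was higher within each library while the groups overlapped (log2 fold change 1.13, adjusted p = 0.0348 by limma). XCL1 lost its call without library 1 or 3, and LOC395551 on leaving out any 1 library, whereas CCL5 kept it in each case. TNFSF8, TNFSF4 and TGFB1 were not called, and IFNG, at 0.0212 in GNLY-high and 0.0146 in GNLY-low cells, was too low to be tested. Of 17 tested genes that dock, prime and fuse granules, none was higher, where 2.55% of all genes were called higher. Among the 17, 1 was lower, beside 0.808% of all genes, and the list median log2 fold change was -0.17. The lower gene was SYTL3, a synaptotagmin-like effector of RAB27, with 4.06, 3.67 and 5.78 in GNLY-high cells, against 9.25, 6.11 and 9.31 in GNLY-low cells (log2 fold change -0.86, adjusted p = 0.0142 by limma). SYTL3 lost its call without library 1 or 3 and without the replicate block.

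**Figure D2:**
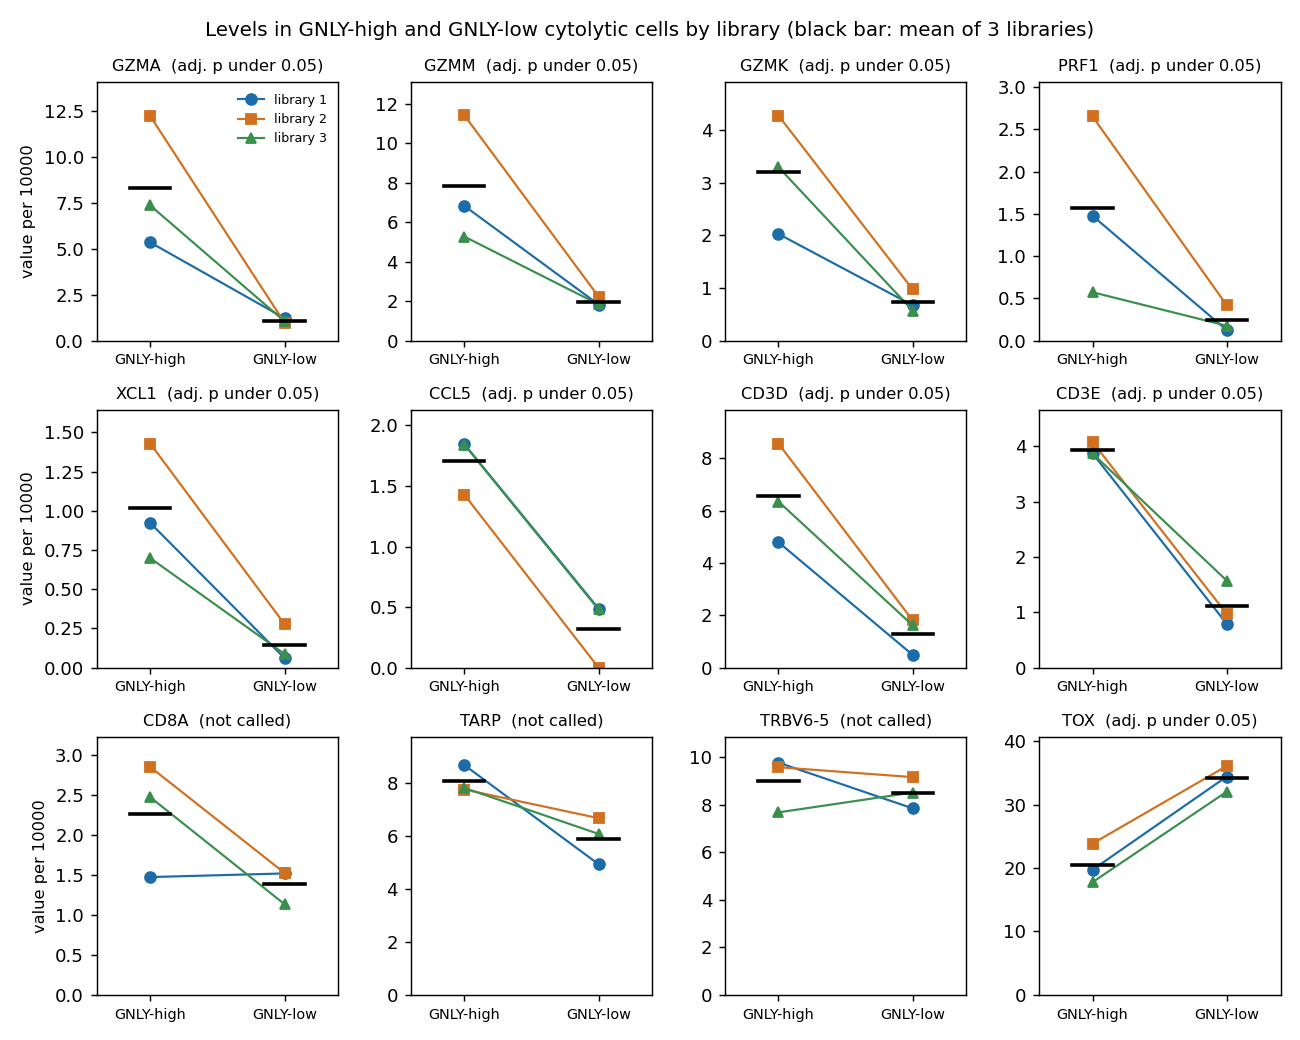
Levels per 10000 (y axes, each from 0) of 12 genes in GNLY-high and GNLY-low cells of libraries 1 to 3, with a line for each library and black bars for the means of 3 libraries. GZMA, GZMM, GZMK, PRF1, XCL1, CCL5, CD3D and CD3E are higher in GNLY-high cells in every library, TOX is lower, and CD8A, TARP and TRBV6-5 were not called.

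Among the T-cell receptor genes, the CD3 chains were higher in GNLY-high cells while the receptor chain genes were not called. CD3D, on chromosome 24, had 4.80, 8.57 and 6.35 in GNLY-high cells, against 0.487, 1.81 and 1.62 in GNLY-low cells. The libraries did not overlap, and the log2 fold change was 2.39 ± 0.30 (SE, adjusted p = 3.01e-13 by limma). CD3E, also on chromosome 24, had 3.88, 4.08 and 3.87 in GNLY-high cells, against 0.791, 0.973 and 1.57 in GNLY-low cells, with a log2 fold change of 1.79 ± 0.33 (SE, adjusted p = 3.62e-06 by limma). In the cells outside the conditions CD3D averaged 3.07 and CD3E 2.10, which lay between both groups. TARP, a gene of the TCR γ locus, had 8.67, 7.75 and 7.81 in GNLY-high cells, against 4.93, 6.67 and 6.07 in GNLY-low cells. TARP did not overlap between the groups, but its log2 fold change of 0.46 was not called (adjusted p = 0.408 by limma). TRBV6-5, of the TCR β locus, averaged 9.02 in GNLY-high and 8.51 in GNLY-low cells, with overlapping libraries and a log2 fold change of 0.08. LOC121110951, of the TCR δ-chain, was listed at 0 in every profile but that of GNLY-high cells of library 1, at 0.369. The annotated spans of TARP and TRBV6-5 overlap many other genes of their loci, that of CD3E overlaps MPZL2 and that of GZMM overlaps APC2, so reads of these could be shared, which was not examined.

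CD3D or CD3E was seen in 81.0%, 89.5% and 86.9% of GNLY-high cells in libraries 1 to 3, against 24.3%, 34.5% and 45.7% of GNLY-low cells. TARP was seen in 66.3% of GNLY-high and 53.4% of GNLY-low cells. None of TARP, CD3D and CD3E was seen in 4 of 101 GNLY-high cells (3.96%) and in 56 of 193 GNLY-low cells (29.0%). Cells of the monocyte side gave 4.86% for CD3D, 0.540% for CD3E and 0.432% for TARP, which was below each of these shares. GNLY-high cells had the higher median total, which also raises the chance of seeing a gene, and the part of depth in these shares was not tested. The fit below on cells with a total of 2500 or more compared levels and not shares. Its totals were read as already corrected for depth, so it cannot settle the part of sequencing depth. CD8A was seen in 43.6% of GNLY-high and 23.8% of GNLY-low cells, and its level was 1.48, 2.86 and 2.48 in GNLY-high cells, against 1.52, 1.53 and 1.14 in GNLY-low cells (log2 fold change 0.63, adjusted p = 0.478 by limma). CD8BP, the CD8 β-chain, averaged 0.907 ± 0.435 in GNLY-high and 0.304 ± 0.218 in GNLY-low cells and was not called, but without library 2 its adjusted p by limma was 0.00829. CD4 was seen in 0 of 101 GNLY-high and 4 of 193 GNLY-low cells. Both TARP and CD8A were seen in 32 of 101 GNLY-high and 25 of 193 GNLY-low cells.

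The comparison was also made within narrower sets of cells. Among cells with CD3D or CD3E of 1 or more (17, 17 and 53 GNLY-high cells, 17, 10 and 43 GNLY-low cells), 133 genes were higher and 19 lower. GZMA, GZMM, GZMK, CCL5 and RAC2 were still higher and TOX lower, whereas PRF1 at a log2 fold change of 2.25 and CD3E at 0.53 were not called. CD3D was still higher there, at a log2 fold change of 1.14 (adjusted p = 0.0470 by limma). CD3D and CD3E chose the cells of this set, so their values there are a description. Among cells with TARP of 1 or more, 120 genes were higher and 8 lower, with GZMA, GZMM, CD3D and CD3E among the higher. Among cells with CD8A of 0, for which libraries 1 and 3 had enough cells, 135 were higher and 30 lower, with the same 4 genes among the higher. Among cells with a total of 2500 or more, 111 were higher and 15 lower, again with GZMA, GZMM, CD3D and CD3E among the higher. PRF1 was called in none of these 4 sets, at log2 fold changes of 1.67 to 2.25, while TOX was lower in all 4. Many of the higher genes were ribosomal protein genes. They numbered 67 of 133 in the CD3 set, 66 of 120 in the TARP set and 63 of 135 at CD8A of 0. These sets are subsets of the cells in which the genes were called and give no independent test. The sets need not be equal in makeup between the groups, and the part of cell makeup in the calls was not tested.

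Over all genes tested, 2.55% were called higher and 0.808% lower. Of 36 tested genes of the TCR complex and its signalling, 4 were higher and 1 lower, with a list median of 0.08. Besides the CD3 chains, the higher genes were PTPN6, the phosphatase SHP-1, at a log2 fold change of 1.21, and CSK, a kinase that restrains LCK, at 1.50. SLA, an adaptor that limits receptor levels, was lower at -0.80, but in 2 of 3 libraries only, with 13.5, 1.84 and 7.94 in GNLY-high cells, against 10.8, 8.61 and 11.6 in GNLY-low cells. PTPN6 lost its call on leaving out any 1 library, CSK without library 1 or 3 and SLA without library 2 or 3, and none of the 3 was called without the replicate block. CBLB, a ubiquitin ligase that dampens T-cell activation, averaged 25.7 in GNLY-high and 34.0 in GNLY-low cells (log2 fold change -0.43, adjusted p = 0.169 by limma). Its libraries did not overlap between the groups, but it was not called. No gene was called among 8 tested NK receptors and adaptors, 14 costimulators and checkpoints, 22 cytokine receptors and 16 genes of cytokine signalling. Their medians lay between -0.22 and 0.20. With 3.35% of all genes called, few calls would fall in lists of these sizes. IL2RB, the β-chain shared by the receptors of IL-2 and IL-15, averaged 2.47 in GNLY-high and 2.12 in GNLY-low cells, against 0.143 in cells outside the conditions. CD226, an activating receptor, averaged 3.75 in GNLY-high and 3.29 in GNLY-low cells. ADCY7, an adenylate cyclase, averaged 10.3 in GNLY-high and 11.8 in GNLY-low cells. INPP5A, an inositol phosphatase, averaged 3.09 in GNLY-high and 3.65 in GNLY-low cells, and SATB1, a chromatin organiser, 3.27 in GNLY-high and 4.02 in GNLY-low cells. The libraries overlapped in each of IL2RB, CD226, ADCY7, INPP5A and SATB1. SATB1 was called lower without library 2 (log2 fold change -1.32, adjusted p = 0.00249 by limma). The study divides its cytolytic cells into sub-clusters. Of 7 tested genes listed for its sub-cluster 2, 0 were called, with a median of -0.23. Of 3 tested genes listed for its NK-like sub-cluster, TOX was lower. Of 9 tested α/β CD8 T-cell genes, CD3D, CD3E, GZMA and GZMM were higher, and of 8 tested γ/δ T-cell genes 0 were called. These lists share genes with the text above and are no further results.

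TOX, an HMG-box factor of T-cell and NK-cell development, was lower in GNLY-high cells. Its level was 19.7, 23.9 and 17.8 in GNLY-high cells, against 34.5, 36.1 and 32.1 in GNLY-low cells, with no overlap and a log2 fold change of -0.75 ± 0.17 (SE, adjusted p = 6.37e-04 by limma). It averaged 36.6 in the cells between and 11.04 in cells outside the conditions. Without library 1 or 3, its adjusted p by limma was 0.0729 or 0.0672. Of 24 tested effector transcription factors, KLF2 and IKZF2 were higher, where 2.55% of all genes were called higher and 0.808% lower. Their log2 fold changes were 1.12 and 0.95, and each lost its call on leaving out any 1 library. TBX21 and EOMES, the T-box factors of cytolytic cells, were not called, with means of 0.778 in GNLY-high and 0.279 in GNLY-low cells for TBX21 and of 1.72 in GNLY-high and 0.862 in GNLY-low cells for EOMES. Of 14 tested factors of naive and memory cells, FOXP1, a factor of quiescence, was lower, with means of 18.7 in GNLY-high and 27.9 in GNLY-low cells (log2 fold change -0.58, adjusted p = 0.0291 by limma), and lost its call without library 1 or 3. RUNX1 averaged 9.66 in GNLY-high and 15.2 in GNLY-low cells (log2 fold change -0.63, adjusted p = 0.0536 by limma). BCL11B, a factor of T-cell identity, averaged 19.8 in GNLY-high and 22.2 in GNLY-low cells. Of 19 adhesion and migration genes only RAC2 was called, a GTPase of blood cells that moves actin. Its level was 4.61, 4.49 and 4.06 in GNLY-high cells, against 0.609, 0.695 and 0.481 in GNLY-low cells (log2 fold change 2.70, adjusted p = 2.27e-12 by limma).

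Ribosomal protein genes set both groups apart most widely, at 67 of 70 higher and none lower. Over all genes, 2.55% were called higher and 0.808% lower. The summed level of the ribosomal protein genes was 402, 579 and 323 in GNLY-high cells, against 55.8, 92.7 and 89.1 in GNLY-low cells. In the cells outside the conditions the sum was 384, 386 and 392. In this sum GNLY-high cells lay above the cells outside the conditions in libraries 1 and 2 and below them in library 3, and GNLY-low cells lay below them in all 3. RPL36A, of the large subunit, had the widest difference among them, with 8.49, 10.8 and 6.16 in GNLY-high cells, against 0.304, 0.973 and 1.05 in GNLY-low cells (log2 fold change 3.40). RPS16, RPS26, RPS20 and RPS3 of the small subunit and RPL30 of the large subunit had log2 fold changes of 2.82 to 3.00. The uncalled members were RPL7L1, RPL22L1 and RPS27L, which are paralogs of ribosomal protein genes. Per cell, the ribosomal share had a median of 2.67%, 2.87% and 2.42% in GNLY-high cells of libraries 1 to 3, against 0.477%, 0.558% and 0.656% in GNLY-low cells. A share of 5% or more was seen in 20 of 101 GNLY-high cells, up to 17.3%, and in 1 of 193 GNLY-low cells. The mitochondrial genome gave 1 lower gene of 30 tested, the rRNA gene J6367-mgr02, and its summed level was 1129, 746 and 1280 in GNLY-high and 1227, 1044 and 1344 in GNLY-low cells.

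**Figure D3:**
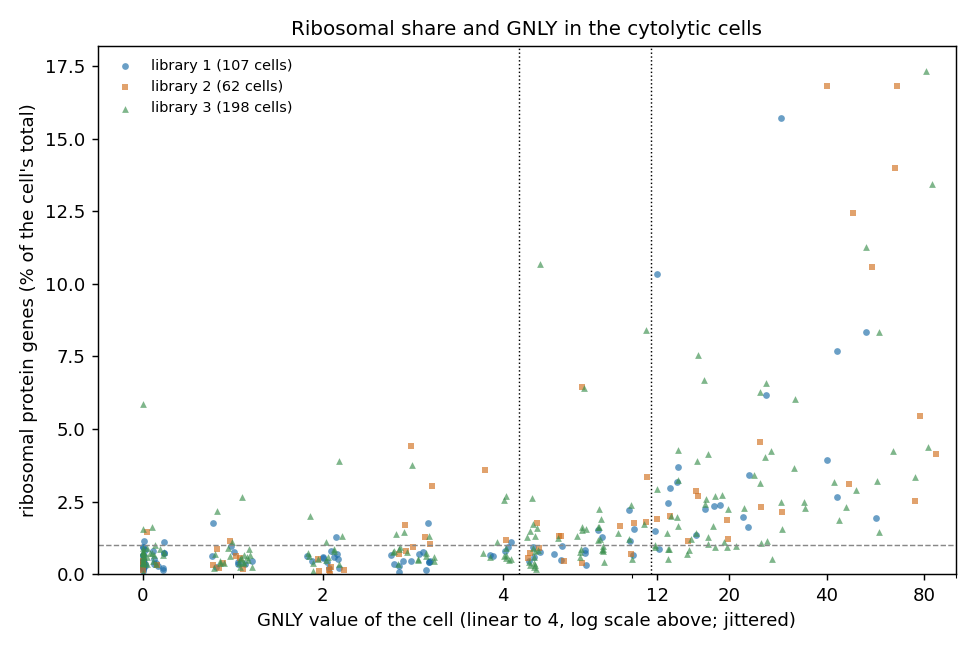
Ribosomal protein genes as a percentage of the total of each of the 367 cytolytic cells (y axis) by the GNLY value of the cell (x axis, linear to 4 and logarithmic above, jittered), with a marker for each library. Dotted lines mark the GNLY limits and the dashed line a share of 1%; most GNLY-high cells lie above it (88.1%) and most GNLY-low cells below it (16.6% above).

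The ribosomal share moved with GNLY, so the genes were also compared among cells with a share of 1% or more. This kept 20, 19 and 50 GNLY-high cells but only 6, 9 and 17 GNLY-low cells, and it was chosen after the data were seen. The cut did not make the ribosomal share equal between the groups. All 67 ribosomal protein genes called higher in all cells kept a positive sign there, with a median of 1.36, against 2.42 in all cells. Genes called in this set are therefore not genes compared at a like ribosomal share. Of all genes, 14 were higher and 11 lower there, and 17 of these 25 were called the same way in all cells. The higher genes included GZMA (log2 fold change 2.03, adjusted p = 0.0377 by limma), ACTB at 1.44, TMSB4X at 1.28 and YBX1 at 2.96, with 6 ribosomal protein genes of the list. SEMA3C, a secreted semaphorin, was also higher there, at 4.48 ± 1.04 (SE), against 2.07 in all cells. The lower ones were SH3KBP1, ARHGAP15, FRMD8 and 8 genes of the mitochondrial genome. GZMM at 1.15, PRF1 at 0.71, CD3D at 1.09, CD3E at 1.53 and TOX at -0.36 kept their sign but were not called. Of the 179 higher genes other than ribosomal protein genes, 177 kept a positive sign, with a median of 1.59, against 1.86 in all cells, beside a median over all genes of 0.52. Of the 78 lower genes, 67 kept a negative sign, with a median of -0.62, against -1.28 in all cells. The genes had been chosen in cells that include these, so the signs are a description. Too few GNLY-high cells had a share under 1% for the opposite set. The part of the ribosomal share in the other differences was not tested further.

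**Figure D4:**
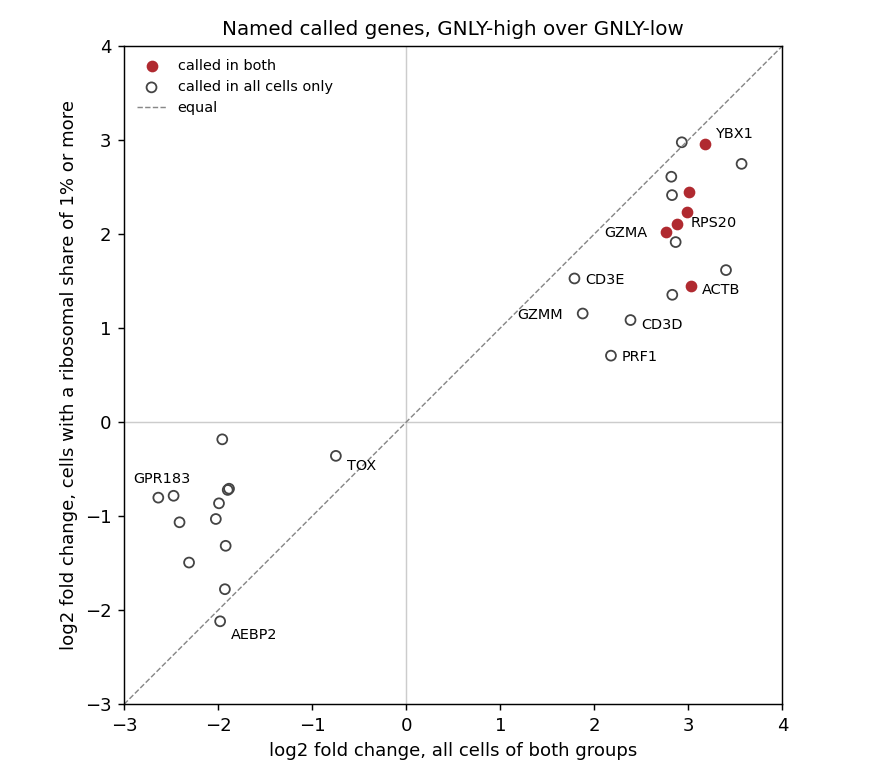
Log2 fold changes of the 30 called genes named in the text by rule, in cells with a ribosomal share of 1% or more (y axis) and in all cells of both groups (x axis). Filled points were called in both comparisons, GZMA, ACTB, YBX1, RPS16, RPS26 and RPS20; most points lie nearer to 0 than the dashed line of equality.

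Further genes were named for the size of their change. ACTB, β-actin, had 25.3, 19.8 and 17.1 in GNLY-high cells, against 1.58, 3.20 and 2.75 in GNLY-low cells, with a log2 fold change of 3.03 ± 0.23 (SE, adjusted p = 3.56e-36 by limma). ACTB averaged 13.8 in the cells outside the conditions. YBX1, an mRNA-binding protein, had 6.64, 5.10 and 3.94 in GNLY-high cells, against 0.244, 0.556 and 0.743 in GNLY-low cells (log2 fold change 3.18). LOC770612, an interferon-induced transmembrane protein gene for which RefSeq lists IFITM3 as a synonym and which the study uses as an eosinophil-associated marker, had the largest log2 fold change under the rule for named genes, 3.57, with 3.14, 4.08 and 2.35 in GNLY-high cells, against 0.304, 0 and 0.393 in GNLY-low cells. NME2, a nucleoside diphosphate kinase, and RPL26L1, a ribosomal protein paralog, each had 2.83. DYL1, a dynein light chain, had 0.923, 0.612 and 0.508 in GNLY-high cells and was listed at 0 in all GNLY-low libraries, so it was tested only through its GNLY-high level, and it lost its call without library 1 (adjusted p = 0.103 by limma). TMSB4X, thymosin β4, which binds actin monomers and was chosen after its values were seen, averaged 30.5 in GNLY-high and 6.46 in GNLY-low cells, against 28.8 outside the conditions. Of the 179 higher genes that are no ribosomal protein genes, the GNLY-low mean was below that of the cells outside the conditions in 158, and the GNLY-high mean above it in 150.

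MHC class I genes gave 4 higher of 8 tested, where 2.55% of all genes were called higher. BF2, the major class I heavy chain of chicken, had 7.57, 11.8 and 7.62 in GNLY-high cells, against 1.46, 3.20 and 2.84 in GNLY-low cells (log2 fold change 1.85). BF1, the minor heavy chain, averaged 4.18 in GNLY-high and 1.24 in GNLY-low cells. B2M, the light chain, averaged 1.32 in GNLY-high and 0.299 in GNLY-low cells, and TAPBP, tapasin, which loads peptides, 1.88 in GNLY-high and 0.554 in GNLY-low cells. BF1 and BF2 are close paralogs, so reads may be split between them. BF1 and BF2 kept their calls on leaving out any 1 library, whereas TAPBP lost it each time and B2M without library 1. Of 13 tested glycolysis genes, GAPDH, PGAM1, ENO1 and LDHB were higher and none lower, with GAPDH at 4.98, 2.04 and 2.86 in GNLY-high cells, against 0.852, 0.556 and 0.437 in GNLY-low cells (log2 fold change 2.19). ENO1 lost its call on leaving out any 1 library and PGAM1 without library 3. The proliferation list gave 4 higher of 13, STMN1, H2AFZ, PPIA and YBX1, which act in microtubules, chromatin, protein folding and RNA binding, while PCNA and MCM2 were not called and the cells had been chosen for low MKI67 and TOP2A. STMN1 and H2AFZ lost their calls without library 1. The heat shock genes HSPA8 and HSP90AA1 were higher of 17 immediate early and stress genes, and both lost their call without library 1. No MHC class II gene of 4 and no interferon-stimulated gene of 12 was called, where 3.35% of all genes were called. The interferon-stimulated list does not include LOC770612, the interferon-induced transmembrane protein gene called higher above. The ribosomal share was also higher in GNLY-high cells, and its part in these calls was not tested. In the narrower set of cells with a share of 1% or more, YBX1 alone of the genes in this paragraph was called. That set held only 6, 9 and 17 GNLY-low cells.

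The genes lower in GNLY-high cells formed no single list. GPR183, the oxysterol receptor that guides lymphocytes and whose span overlaps UBAC2, had 0, 0 and 0.191 in GNLY-high cells, against 0.426, 0.973 and 1.14 in GNLY-low cells (log2 fold change -2.64, adjusted p = 0.00345 by limma). UBE2E2, a ubiquitin-conjugating enzyme, had 0, 1.22 and 0.508 in GNLY-high cells, against 1.83, 2.92 and 2.27 in GNLY-low cells (log2 fold change -2.47, adjusted p = 7.06e-07 by limma). AEBP2, a partner of Polycomb repressive complex 2, had 0.369, 0.204 and 1.397 in GNLY-high cells, against 2.98, 2.50 and 1.53 in GNLY-low cells (log2 fold change -1.98). ERC1, a scaffold of vesicle docking, had -1.99, TBC1D4, a RAB GTPase activator, -2.41, and ADK, adenosine kinase, -1.92. PRTG, CCDC91, KLHL2, DAPK2 and CDK8 had -1.88 to -2.02. ZNF521, a zinc finger factor, was listed at 0 in all GNLY-high libraries, against 0.0609, 1.11 and 0.524 in GNLY-low libraries. TBC1D4 had 0, 0 and 0.0635 in GNLY-high cells, against 0.426, 0.556 and 0.612 in GNLY-low cells. Both ZNF521 and TBC1D4 were tested only through their GNLY-low levels. Of these 12 genes named by rule, UBE2E2 and AEBP2 kept their calls on leaving out any 1 library, while the others lost theirs at least once. FRMD8, chosen after its values were seen, was the most abundant gene of all, with 811, 674 and 774 in GNLY-high cells, against 1048, 849 and 1053 in GNLY-low cells (log2 fold change -0.38), and so took part of the total to which all genes were scaled.

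Called genes also differed in length. The median annotated length was 4.07 kb for the 246 higher genes, 116 kb for the lower genes and 17.4 kb for all tested genes. Of the higher genes 221 were shorter than 20 kb, as were 54.4% of all tested genes, and 42 of the lower genes were longer than 100 kb, as were 8.77% of all. GZMA spans 22.7 kb, GZMM 4.38 kb and ACTB 4.23 kb, whereas ELMO1, a called lower gene chosen after its values were seen, spans 301 kb. CD3D spans 2540 bases and CD3E 7903 bases. Of the receptor chain genes that were not called, TARP spans 89115, TRBV6-5 201106 and LOC121110951 238051 bases. Why length and direction moved together was not tested.

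**Figure D5:**
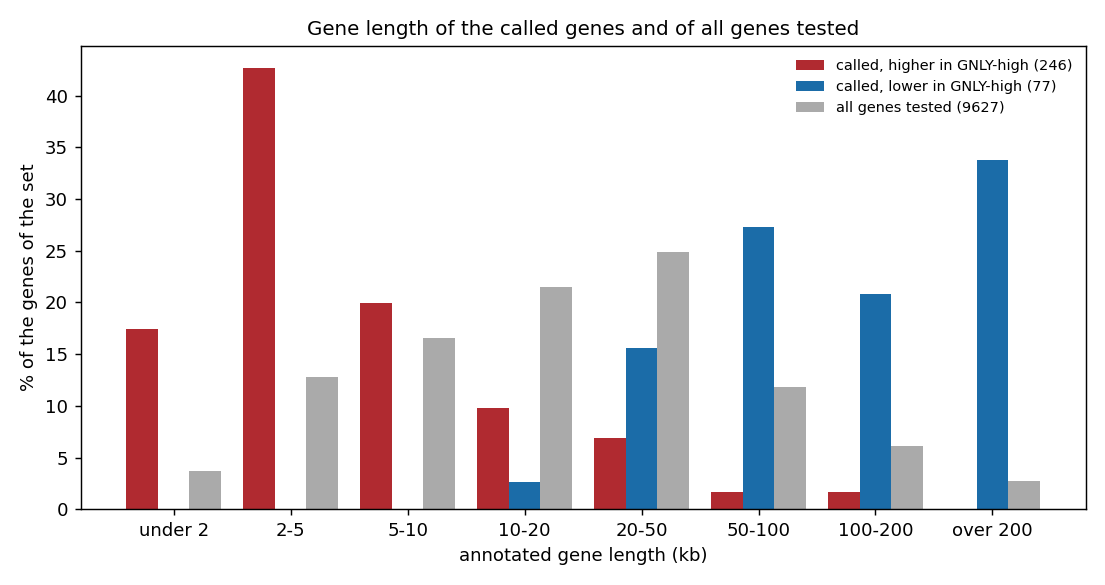
Share of genes (y axis, percent of each set) by annotated gene length (x axis, kb) for genes called higher in GNLY-high cells, genes called lower and all genes tested with a length. The higher genes are mostly shorter than 20 kb and the lower genes mostly longer, with 42 over 100 kb.

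Cells with GNLY values of 5 to 11, which entered no test, lay between both groups in 274 of the 324 called genes and in 30.4% of all genes tested. The called genes were chosen for a gap between the outer groups, so the higher count is no separate result. GZMA averaged 2.25 ± 1.74 in these cells, against 8.32 in GNLY-high and 1.08 in GNLY-low cells, and GZMM 4.08 ± 1.92, against 7.84 in GNLY-high and 1.96 in GNLY-low cells. CD3D averaged 2.51, between 6.57 in GNLY-high and 1.30 in GNLY-low cells, whereas CD3E at 1.29 and PRF1 at 0.317 stood close to GNLY-low cells, with 1.11 for CD3E and 0.238 for PRF1. RAC2 at 0.653 was near the GNLY-low mean of 0.595, and TOX at 36.6 was near that of 34.2. Their ribosomal sum was 94.7, 159 and 168, nearer to GNLY-low cells. Under limits of 20 or more and 1 or less, 195 genes were higher and 67 lower, with GZMA, GZMM, PRF1, CD3D, CD3E and TOX still called, and under limits of 8 or more and under 8, 213 were higher and 50 lower with the same 6 genes called.

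Of 4 monocyte, 3 B-cell, 2 thrombocyte, 3 red blood cell, 6 CD4 or regulatory T-cell and 8 granulocyte markers tested, none was called. Over all genes, 3.35% were called. The summed level of 12 monocyte markers was 0.738 to 2.22 in GNLY-high and 1.18 to 1.53 in GNLY-low profiles, with 4 markers, CD14 and MARCO among them, at 0 in all profiles. For 10 B-cell markers the sum was 0.185 to 0.508 in GNLY-high and 0.244 to 0.612 in GNLY-low profiles, with 3 markers at 0 in all. For 6 thrombocyte markers it was 0 to 0.204 in GNLY-high and 0.0609 to 0.219 in GNLY-low profiles, with 2 at 0 in all, and for 4 red blood cell markers 2.03 to 2.45 in GNLY-high and 1.67 to 2.49 in GNLY-low profiles. The CD4 and regulatory T-cell markers summed to 0.612 to 0.923 in GNLY-high and 0.852 to 5.70 in GNLY-low profiles, of which IL2RA alone gave 4.17 in GNLY-low cells of library 2. The granulocyte markers, which do not include LOC770612, called higher above, summed to 4.69 to 9.60 in GNLY-high and 4.72 to 17.3 in GNLY-low profiles, of which MCTP2 gave 3.88 to 7.93 in GNLY-high and 3.20 to 11.9 in GNLY-low profiles and CTSG gave 4.37 and HDC 2.58 in GNLY-low cells of library 3. IL2RA was called lower without library 1, and CTSG without library 1 or 2. Without the condition on FASLG, 380 genes were higher and 487 lower, against 246 higher and 78 lower in the fit used, so calls were more common there. TARP, CD8A and CD8BP were among the higher, and all 6 thrombocyte markers were among the lower. The groups of this setting thus also differed in thrombocyte transcripts, and the part of cell makeup in its calls was not tested.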

How the data were processed

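Single-cell libraries (10x Chromium, 3' v3.1) of blood leukocytes were counted by the authors with Cell Ranger on GRCg7b. Its version is 1.2.0 in the submitters' processing notes, whereas the study's methods name a different, later version. Doublets and low-quality cells were removed, and each library was normalised alone with SCTransform in Seurat. The deposited matrix holds 15271 genes by 16936 cells as scores in whole numbers, with totals of 1577 to 3004 per cell, which the authors are taken to have corrected for depth; the files do not state it. They were not treated as raw counts. Barcodes name libraries 2 to 4, and those with no prefix were taken as library 1. Libraries 1 to 4 held 4452, 2697, 4893 and 4894 cells and medians of 1044 to 1163 genes.

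Values were summed per library and group, scaled to 10000, and log2 of the level plus 0.1 was fitted with limma 3.58.1 (R 4.3.3), with a trend and with the library as a block, since both profiles of a library came from 1 hen. Their deviations from the group means correlated by 0.0195 to 0.0512. A gene was tested where its mean level reached 0.05 in 1 group or the other, without the 9 genes that chose the cells, at an adjusted p threshold of 0.05 (Benjamini-Hochberg). The fit was tested on simulated data. These were drawn with the spread shared among genes of like level, so genes with another spread of their own were not tried. Profiles needed 10 cells, or 5 among cells with a ribosomal share of 1% or more. Gene names and positions came from the files and RefSeq. The genes named with full values were 19 set genes and the 12 largest log2 fold changes in each direction among called genes that moved 1 way in 3 libraries and reached 0.5 per 10000. List members were named with their counts. The cells, limits, lists and set genes were chosen with earlier results of these data known. The lists also included genes that the study gives for sub-clusters of these cells. No comparison columns were used.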

Additional observations from a re-analysis of the deposited data

How the results depend on the processing

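The comparison was repeated under 26 other settings. Beside the 324 genes called, 192, 286 and 190 were called without library 1, 2 or 3, and 177, 234 and 184 of these were among the 324. Counts moved by over 1.5 times without library 1 or 3, and to 0 without a trend and 0 with each gene's own spread. By the same limit they moved to 867 without the condition on FASLG, 152 in CD3-bearing cells and 165 in cells with CD8A of 0. They also moved to 128 in cells with TARP, 126 at totals of 2500 or more and 25 at a ribosomal share of 1% or more. Without the replicate block 240 genes were called, all among the 324, and TOX lost its call (adjusted p = 0.0549 by limma). The share of higher calls was 75.9% of the 324 calls, 86.1% with log values centred on their median (236 higher, 38 lower) and 87.5% without the replicate block. The 30 called genes named by rule gave 780 values over these settings, of which 578 stayed called, 202 did not and none turned. Genes not called turned sign in 16 values. On the log2 scale, TRBV6-5 gave -0.042 to 0.19 without 1 library, -0.21 at GNLY limits of 20 and 1, -0.21 with CD8A of 0, -0.12 at a ribosomal share of 1% or more and -0.087 with TARP. CD226 gave -0.17 to 0.63 without 1 library, -0.45 at limits of 20 and 1 and -0.078 at totals of 2500 or more. IL2RB gave -0.12 to 0.55 without 1 library and -0.31 with CD8A of 0. ADCY7 gave 0.16 without the FASLG condition and 0.27 at a ribosomal share of 1% or more. BCL11B (0.10) and RUNX1 (0.0094) turned in CD3-bearing cells and LOC121110951 (-0.20) without the FASLG condition. The causes were not tested. Cells with TARP of 0, without CD3D and CD3E, with CD8A of 1 or more or with a ribosomal share under 1%, and CD3-bearing cells with a share of 1% or more, were too few to be fitted. The 6 settings on ribosomal share, total and prior were chosen after seeing the data. A value of 1 in a GNLY-high profile was worth 0.0635 to 0.204 per 10000, so levels near these rest on few values.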
